A study of Mus musculus with 8 samples.

Results

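Genes for axon and cell guidance were compared between long bones of Hyp and wild-type (WT) mice. The set held 41 named genes, and every probe set annotated to exactly 1 of these symbols was used. It comprised the ligands of the ephrin, Slit, netrin and non-class-3 semaphorin families and, as receptors, Eph, Robo, Unc5, Dcc, neogenin and plexin genes. Of the 41 genes 40 had such a probe set, 98 probe sets in all, among 18193 genes measured, and Ephb2 was not measured here. Each gene was the mean of its probe sets, 19 ligands and 21 receptors were measured, and no filter on low values was applied, so all 40 measured genes were tested. All mice were 12-day-old males, and RNA was taken from femur and tibia for 4 arrays of Hyp and 4 of WT bone. Hyp mice carry a 3′ deletion of Phex on the C57BL/6 background and are a model of X-linked hypophosphatemia. For the WT mice the strain label says only wild type. The labels name no treatment, and the protocol describes a standard diet. In each group 2 bone samples were combined for 1 RNA, and the labels do not say from how many animals. The p-values therefore measure the spread between these RNA samples.

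Guidance cues were named for steering growing axons, and the same ligands and receptors act between cells of bone. Ephrins are membrane-bound ligands of Eph receptor tyrosine kinases and can signal into both cells of a contact. In bone, ephrin-B2 on osteoclasts and EphB4 on osteoblasts are a known pair, and Sema4D from osteoclasts restrains osteoblasts through plexin-B1. Slits act through Robo receptors, netrins through Dcc, neogenin and Unc5 receptors, and Sema7A through plexin-C1 and integrins.

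The Hyp arrays were lower than the WT arrays for 10 of the 40 measured guidance genes and higher for 3 (limma, adjusted p under 0.05). These 13 genes were 32.5% of those measured, where 12.9% of all genes passed, 6.54% higher and 6.32% lower. The set was chosen with earlier results of these data known, and its share was not tested against that of all genes. The largest fall was in the netrin receptor gene Unc5c, followed by the Slit receptor gene Robo2 and the ephrin receptor gene Epha3, and the largest rise was in the semaphorin gene Sema7a. Receptors accounted for 9 of the 13, with 7 of 21 lower and 2 higher, and ligands for 4, with 3 of 19 lower and 1 higher. The median difference was -0.04 over the 40 genes, -0.06 over ligands and -0.04 over receptors, beside 0.02 over all genes, with 15 of the 40 differences above 0 and 25 below. The median size of a difference was 0.19 for the 40 genes and 0.09 for all genes. The groups did not overlap for 18 of the 40 genes, 11 lower and 7 higher in Hyp, where 19.2% of all genes did not overlap, 8.89% lower and 10.3% higher. None of the 40 differed by over 1, where 0.484% of all genes did. The log2 values are relative, with each probe set's median set to 0, so a value says how an array compares with the rest and nothing of how strongly a gene is expressed. In RNA of whole bone, fewer cells of a type and less RNA per cell cannot be told apart.

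**Figure D1:**
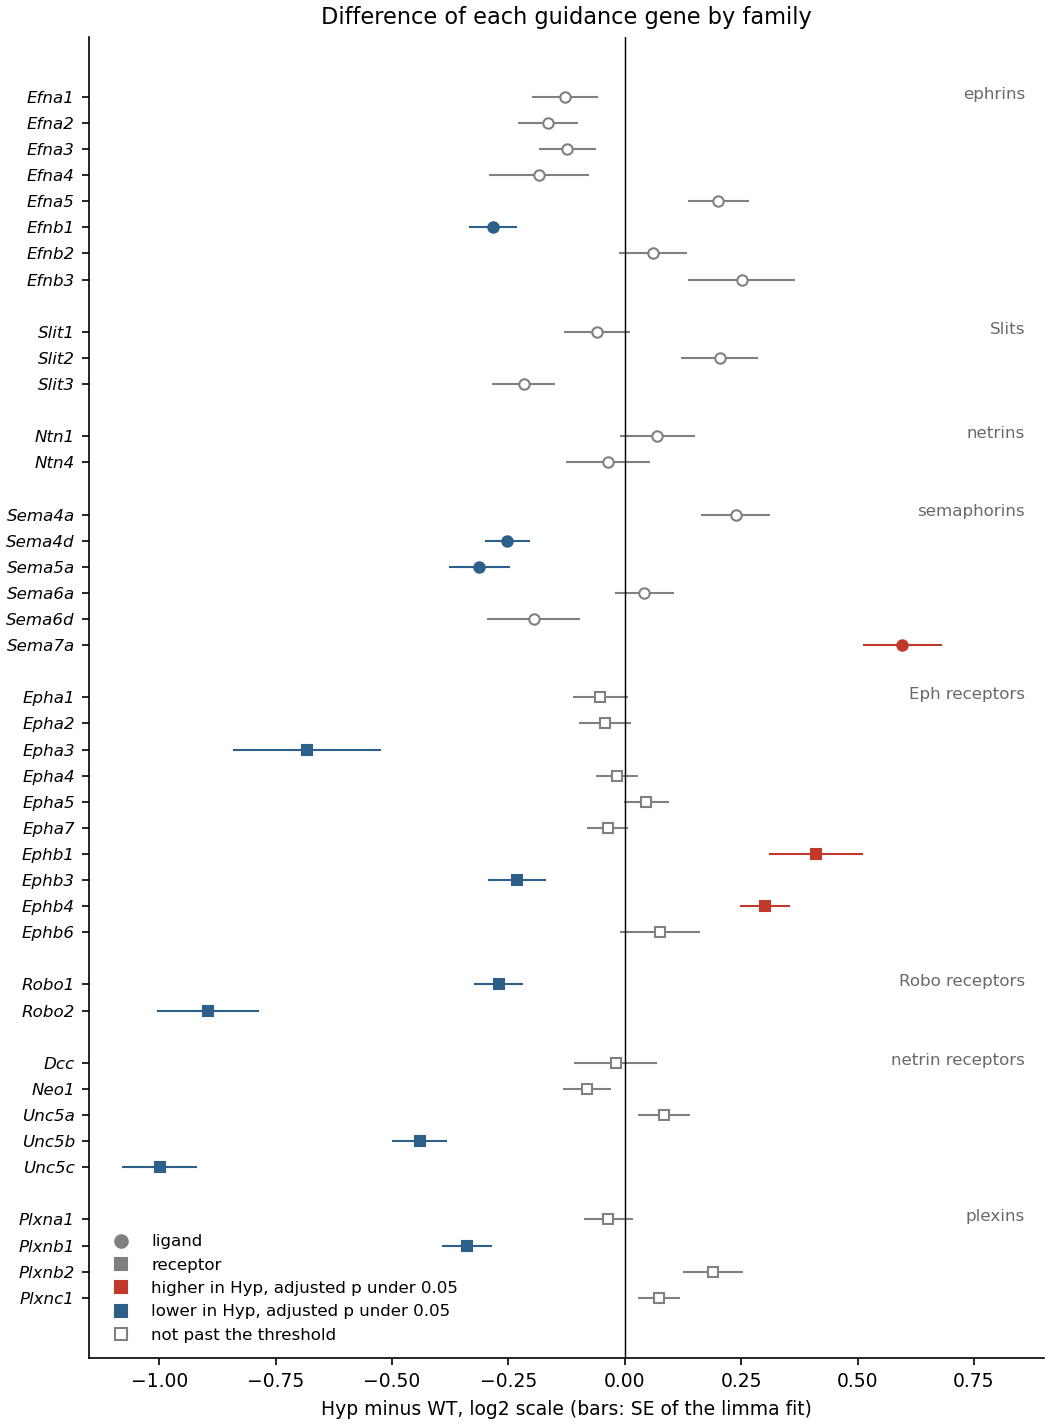
Difference between Hyp and WT (x axis, log2 scale, bars show the SE of the limma fit) for each of the 40 measured guidance genes (y axis, grouped by family). Circles are ligands and squares receptors, and filled symbols passed the threshold: Unc5c, Robo2 and Epha3 lie farthest to the left and Sema7a farthest to the right.

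The genotype check passed on every array. Phex, the deleted gene, lay between -3.65 and -2.99 in Hyp and between 2.95 and 3.48 in WT on the gene mean. The first principal component of all probe sets (39.2% of the variance) separated the genotypes. The next one (22.6%) set WT replicate 3 apart, at -38.4 against -10.3 to 17.5 on the other arrays. On the same array the mean of 8 skeletal muscle markers was 2.09, and on Hyp replicate 2 it was -1.60, while the other arrays lay between -0.66 and 0.34. The counts of guidance genes, ligands, receptors and pathway genes that passed were recomputed without each array. Without WT replicate 3, 4 guidance genes were higher and 10 lower, and without Hyp replicate 2, 2 were higher and 9 lower. The share of all genes that passed in these fits is not given here.

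The promoters of 4 genes are shown because these genes had the largest differences, in size, among the guidance genes that passed and have a single start listed by RefSeq. Each stretch holds 250 bases before and 50 after the start, from build GRCm38.p6, and is given 5′ to 3′ on the gene's strand. Unc5c lies at chr3:141465314-141465613 on the plus strand, Epha3 at chr16:63864126-63864425 on the minus strand, Sema7a at chr9:57939862-57940161 on the plus strand and Unc5b at chr10:60831532-60831831 on the minus strand. Capitals mark matches, on either strand, to a TATA box (TATAAA), a GC box (GGGCGG), a Runx core (TGTGGT), an AP-1 motif (TGANTCA) or a TCF/LEF motif (CTTTGA), and no 2 of these motifs overlap in the stretches shown.
Unc5c: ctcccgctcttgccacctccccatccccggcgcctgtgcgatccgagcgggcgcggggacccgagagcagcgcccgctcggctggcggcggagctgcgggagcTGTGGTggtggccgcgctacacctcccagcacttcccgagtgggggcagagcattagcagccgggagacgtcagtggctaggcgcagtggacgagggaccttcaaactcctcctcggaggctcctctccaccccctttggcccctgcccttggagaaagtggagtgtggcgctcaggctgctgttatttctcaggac
Epha3: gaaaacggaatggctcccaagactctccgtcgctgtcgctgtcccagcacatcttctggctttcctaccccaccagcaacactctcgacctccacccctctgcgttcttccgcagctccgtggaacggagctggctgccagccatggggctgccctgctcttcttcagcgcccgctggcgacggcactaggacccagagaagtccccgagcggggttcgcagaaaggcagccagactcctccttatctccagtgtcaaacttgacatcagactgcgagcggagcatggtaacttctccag
Sema7a: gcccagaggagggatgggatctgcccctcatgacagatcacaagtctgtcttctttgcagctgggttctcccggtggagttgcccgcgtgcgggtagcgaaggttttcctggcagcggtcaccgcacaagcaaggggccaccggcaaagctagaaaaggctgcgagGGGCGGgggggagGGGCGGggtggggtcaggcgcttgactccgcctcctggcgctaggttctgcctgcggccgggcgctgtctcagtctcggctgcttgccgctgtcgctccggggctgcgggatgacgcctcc
Unc5b: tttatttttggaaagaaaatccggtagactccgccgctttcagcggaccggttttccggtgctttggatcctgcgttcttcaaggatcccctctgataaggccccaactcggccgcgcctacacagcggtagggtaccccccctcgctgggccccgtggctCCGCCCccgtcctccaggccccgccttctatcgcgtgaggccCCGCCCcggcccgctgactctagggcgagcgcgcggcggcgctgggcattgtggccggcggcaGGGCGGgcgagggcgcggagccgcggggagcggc
The Unc5c stretch held 1 Runx core, that of Sema7a 2 GC boxes and that of Unc5b 3 GC boxes, and the Epha3 stretch held none of the 5 motifs. Of the 40 measured genes 34 had a listed start, 46 starts in all. A GC box stood in 33 of these 46 promoters (71.7%), where 35.7% of 32851 promoters of the same length held one. It stood in 7 of the 17 promoters (41.2%) of the guidance genes that passed. A TATA box stood in 2 of the 46 (4.35%, beside 13.6% of all), a Runx core in 6 (beside 16.8%), an AP-1 motif in 1 (2.17%, beside 7.81%) and a TCF/LEF motif in 2 (4.35%, beside 16.0%). The median GC content was 64.2% for the 46 promoters and 52.7% for all. A match is a description of the letters and not of binding.

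Among the 8 ephrins, Efnb1 fell and the rest did not pass. Efnb1 encodes ephrin-B1, a transmembrane ligand of EphB receptors. Its values were -0.09, -0.12, -0.17 and -0.22 on Hyp replicates 1 to 4 and 0.21, 0.09, 0.11 and 0.11 on WT replicates 1 to 4. All Hyp arrays lay below all WT arrays. Efnb1 fell by 0.28 ± 0.05 (SE of the fit to 4 and 4 arrays; limma adjusted p = 0.00522), so that its linear level fell by 17.8%. Of its 3 probe sets 2 passed, and the third lay at -0.19 ± 0.07 (adjusted p = 0.114). Efnb2, the partner of EphB4, did not pass, and its arrays overlapped. Its mean was 0.02 ± 0.11 (SD, n = 4) in Hyp and -0.04 ± 0.11 in WT, with a difference of 0.06 ± 0.07 (SE; adjusted p = 0.648). The 4 probe sets of Efnb2 differed in sign and none passed. Of these 2 lay at 0.16 ± 0.07 each (adjusted p = 0.201 and 0.181), and the others at -0.02 ± 0.15 and -0.06 ± 0.14. Efnb3 lay at 0.25 ± 0.11 (adjusted p = 0.188).

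The GPI-anchored ephrin-A genes did not pass, and 4 of the 5 had differences below 0. Efna1, Efna2, Efna3 and Efna4 lay at -0.13 ± 0.07, -0.17 ± 0.06, -0.12 ± 0.06 and -0.18 ± 0.11 (SE; limma adjusted p from 0.126 to 0.299). Among protein-coding genes of the RefSeq table Efna1, Efna3 and Efna4 are direct neighbours on chromosome 3, as Robo1 and Robo2 are on chromosome 16. Efna5 was the exception in sign, with 0.06, 0.30, 0.10 and 0.08 in Hyp and -0.10, 0.04, -0.12 and -0.08 in WT. Its groups did not overlap, and Hyp replicate 2 lay above the other arrays. The difference was 0.20 ± 0.07 (adjusted p = 0.0703). The probe sets of Efna5 disagreed: 1 rose by 0.37 ± 0.09 (adjusted p = 0.0334) and the other, ending in _a_at, lay at 0.03 ± 0.07. With the first alone the gene passed (adjusted p = 0.0186), where the adjusted p over all its alternatives ran from 0.0186 to 0.171.

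No Slit or netrin gene passed. Slit3, which encodes a secreted ligand of Robo receptors, lay at -0.10, -0.20, -0.01 and -0.13 in Hyp and at 0.11, 0.04, 0.27 and 0.01 in WT. The groups did not overlap, by a narrow margin, and the difference was -0.22 ± 0.07 (SE; limma adjusted p = 0.0628). Slit2 lay on the other side of 0, at 0.20 ± 0.08 (adjusted p = 0.139), with Hyp replicate 4 at -0.09 and the other Hyp arrays between 0.18 and 0.25. Without Hyp replicate 4 Slit2 passed, at 0.28 (adjusted p = 0.0309, where its alternatives ran from 0.0309 to 0.486). Slit1 lay at -0.06 ± 0.07. The netrin genes Ntn1 and Ntn4 lay at 0.07 ± 0.08 and -0.04 ± 0.09 (adjusted p = 0.623 and 0.837), with overlapping arrays.

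The semaphorins went both ways. Sema7a, the GPI-anchored semaphorin, rose more than any other guidance gene. It lay at 0.51, 0.36, 0.42 and 0.10 on the Hyp arrays and at -0.14, -0.21, -0.28 and -0.35 on the WT arrays. Every Hyp array was above every WT array, with Hyp replicate 4 the lowest, and the rise was 0.60 ± 0.09 (SE; limma adjusted p = 0.00124), a factor of 1.51. Of its 2 probe sets 1 rose by 0.77 ± 0.09 (adjusted p = 0.000699), and the other lay at 0.42 ± 0.14 (adjusted p = 0.115).

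Sema4d and Sema5a fell. Sema4d, which encodes the osteoclast-derived ligand of plexin-B1, lay at -0.14, -0.16, -0.11 and -0.04 in Hyp and at 0.18, 0.12, 0.15 and 0.11 in WT. The groups did not overlap and the spread within each was small, and it fell by 0.25 ± 0.05 (SE; limma adjusted p = 0.00681). Of its 3 probe sets 1 passed, at -0.31 ± 0.06, and the others lay at -0.28 ± 0.11 and -0.17 ± 0.13. Taking the probe set with the largest SD gave -0.28 (adjusted p = 0.151, the highest over its alternatives, whose lowest was 0.00567). Sema5a, a transmembrane semaphorin with thrombospondin repeats, lay at -0.09, -0.12, -0.07 and -0.19 in Hyp and at 0.31, 0.08, 0.29 and 0.10 in WT. The groups did not overlap, and WT replicates 1 and 3 lay highest. It fell by 0.31 ± 0.07 (adjusted p = 0.0115). Its 4 probe sets ranged from -0.65 ± 0.07, the only one that passed (adjusted p = 0.000376), to -0.11 ± 0.14.

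The other semaphorins did not pass. Sema4a, expressed by immune cells, lay at 0.07, 0.33, -0.01 and 0.20 in Hyp and at -0.12, -0.15, -0.03 and -0.06 in WT. The groups did not overlap, with Hyp replicate 3 and WT replicate 3 close together, and the difference was 0.24 ± 0.07 (SE; limma adjusted p = 0.0592). Without Hyp replicate 3 it was 0.29 (adjusted p = 0.0299, where its alternatives ran from 0.0299 to 0.143). Sema6a and Sema6d lay at 0.04 ± 0.06 and -0.20 ± 0.10 (adjusted p = 0.716 and 0.240).

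**Figure D2:**
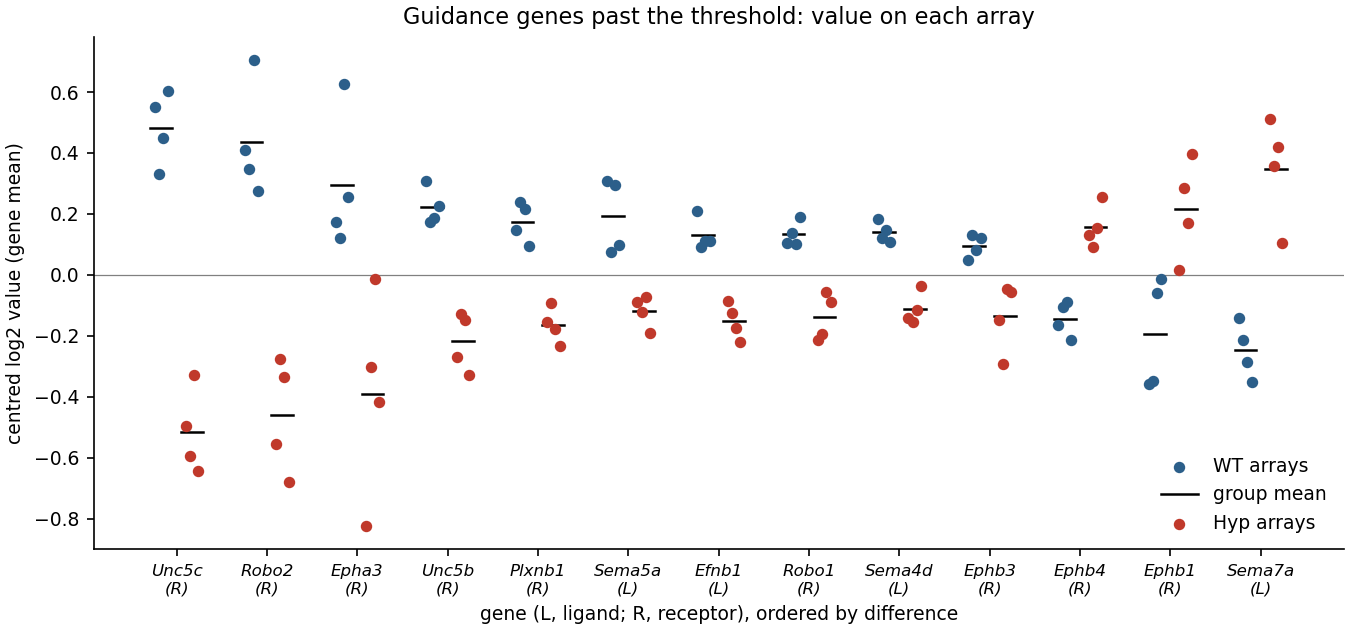
Centred log2 value (y axis) of the 13 guidance genes that passed, on each of the 4 WT arrays and 4 Hyp arrays (points), with the group means as black lines. The genes stand in order of their difference (x axis), and the WT and Hyp points of each gene do not overlap.

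Eph receptors split, with 2 of 10 measured genes lower and 2 higher in Hyp bone. Epha3 had the largest change among them. Its values were -0.82, -0.30, -0.01 and -0.42 in Hyp and 0.17, 0.12, 0.63 and 0.25 in WT. The groups did not overlap but the spread was wide, with Hyp replicate 1 the lowest and WT replicate 3 the highest. It fell by 0.68 ± 0.16 (SE; limma adjusted p = 0.0186), so that its linear level fell by 37.7%. The difference ran from -0.81 to -0.54 without single arrays and passed each time. Its 4 probe sets all lay below 0, at -1.002 ± 0.11 and -0.36 ± 0.08 for the 2 that passed and at -0.91 ± 0.30 and -0.46 ± 0.23 for the others. Taking the probe set with the largest SD gave -0.91 (adjusted p = 0.0791, where the lowest over its alternatives was 0.00332). The other 5 EphA genes (Epha1, Epha2, Epha4, Epha5 and Epha7) lay between -0.05 and 0.05, with adjusted p from 0.583 to 0.855.

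The EphB genes moved in both directions. Ephb4, the ephrin-B2 receptor of osteoblasts and of venous endothelium, lay at 0.13, 0.09, 0.15 and 0.25 in Hyp and at -0.16, -0.11, -0.09 and -0.21 in WT. The groups were well apart, and the rise was 0.30 ± 0.05 (SE; limma adjusted p = 0.00475), or 23.2%, from its single probe set. Beside it, the 8 endothelial markers all rose, and the mean of that list ran from 0.11 to 0.26 in Hyp and from -0.34 to -0.17 in WT. Its part in the rise of Ephb4 was not tested. Ephb1, another receptor of B-class ephrins, lay at 0.01, 0.28, 0.17 and 0.40 in Hyp and at -0.36, -0.35, -0.06 and -0.01 in WT. The groups nearly touched, and the rise was 0.41 ± 0.10 (adjusted p = 0.0243). Ephb3, a receptor of the same class, lay at -0.15, -0.29, -0.05 and -0.06 in Hyp and at 0.05, 0.13, 0.08 and 0.12 in WT. It fell by 0.23 ± 0.06 (adjusted p = 0.0330), and its only probe set did not pass in the fit over probe sets (adjusted p = 0.0721). Ephb6, whose kinase domain is inactive, lay at 0.07 ± 0.09.

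The calls of Ephb1 and Ephb3 depended on single arrays. Ephb1 missed the threshold without Hyp replicate 2 (0.39, adjusted p = 0.0647), Hyp replicate 4 (0.35, 0.0632), WT replicate 1 (0.36, 0.0769) or WT replicate 2 (0.36, 0.0611). Over all its alternatives the adjusted p ran from 0.0107 to 0.0769. Ephb3 missed it without Hyp replicate 1 (-0.23, 0.0764), Hyp replicate 2 (-0.18, 0.0672), WT replicate 1 (-0.25, 0.0624), WT replicate 2 (-0.22, 0.0747) or WT replicate 4 (-0.22, 0.0804), with a range from 0.0222 to 0.0879. The other 11 genes that passed did so without any single array.

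Both Robo genes, which encode Slit receptors, fell. Robo2 lay at -0.55, -0.28, -0.33 and -0.68 in Hyp and at 0.41, 0.35, 0.70 and 0.28 in WT. No Hyp array came within 0.5 of a WT array. It fell by 0.90 ± 0.11 (SE; limma adjusted p = 0.000482), and its linear level fell by 46.3%, from a single probe set. Robo1 lay at -0.21, -0.19, -0.06 and -0.09 in Hyp and at 0.10, 0.14, 0.10 and 0.19 in WT. These groups were also apart, and it fell by 0.27 ± 0.05 (adjusted p = 0.00803). The Robo1 mean joins unlike probe sets: 1 fell by 0.77 ± 0.11 (adjusted p = 0.0018), while the others lay at 0.00 ± 0.07 and -0.05 ± 0.06 (adjusted p = 0.994 and 0.691). Robo4, an endothelial member outside the set, rose by 0.61 ± 0.09 (adjusted p = 0.00212), so Robo genes did not all move one way.

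Among the netrin receptors, Unc5c and Unc5b fell and Unc5a, Dcc and Neo1 did not pass. Unc5 receptors mediate repulsion from netrins and contain a death domain. Unc5c lay at -0.50, -0.59, -0.33 and -0.64 in Hyp and at 0.55, 0.33, 0.45 and 0.60 in WT. The 4 Hyp arrays were all far below the 4 WT arrays. It fell by 0.999 ± 0.08 (SE; limma adjusted p = 5.57e-05), and both probe sets passed, at -1.12 ± 0.11 and -0.88 ± 0.08. Unc5b, the Unc5 gene known from endothelial cells, lay at -0.27, -0.13, -0.15 and -0.33 in Hyp and at 0.31, 0.17, 0.19 and 0.22 in WT. It fell by 0.44 ± 0.06 (adjusted p = 0.00089), and its linear level fell by 26.3%. Again both probe sets passed the threshold (-0.58 ± 0.08 and -0.30 ± 0.07). The endothelial marker list rose, and the part of cell composition in the fall of Unc5b was not tested. Without single arrays the difference ran from -1.06 to -0.96 for Unc5c and from -0.47 to -0.40 for Unc5b.

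Unc5a lay at 0.08 ± 0.06 (SE; limma adjusted p = 0.374) and its arrays overlapped. Dcc, the attractive netrin receptor, lay at -0.02 ± 0.09 (adjusted p = 0.914). Its probe sets ran from -0.18 ± 0.14 to 0.30 ± 0.11 and none passed. Neo1, which encodes neogenin, a receptor of netrins and of repulsive guidance molecules, lay at -0.08 ± 0.05 (adjusted p = 0.349), with 1 of its 5 probe sets lower (-0.26 ± 0.06, adjusted p = 0.0317) and 1 at 0.27 ± 0.12 (adjusted p = 0.211).

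Of the 4 plexins of the set only Plxnb1, which encodes the Sema4D receptor, passed. Outside the set, the plexin genes Plxnd1, Plxna2 and Plxnb3 passed and rose, by 0.45 ± 0.05, 0.36 ± 0.06 and 0.25 ± 0.05 (SE). Plxna3 and Plxna4, also outside the set, did not pass (-0.13 ± 0.07 and 0.04 ± 0.06). Plxnb3 was named after its values were seen. Plxnb1 lay at -0.16, -0.09, -0.18 and -0.23 in Hyp and at 0.15, 0.24, 0.21 and 0.10 in WT. The groups were apart. It fell by 0.34 ± 0.05 (SE; limma adjusted p = 0.0022), and its linear level fell by 21.0%. Its probe sets lay at -0.53 ± 0.09 (adjusted p = 0.00482) and -0.15 ± 0.07 (adjusted p = 0.229). Plxnb2, a receptor of the same class, lay at 0.01, 0.21, 0.00 and 0.03 in Hyp and at -0.15, -0.18, 0.00 and -0.17 in WT. Hyp replicate 3 and WT replicate 3 almost met, and the difference of 0.19 ± 0.06 did not pass (adjusted p = 0.0840). It passed without WT replicate 3 (0.23, adjusted p = 0.0351, where its alternatives ran from 0.0351 to 0.184). Plxnc1, which encodes the Sema7A receptor, lay at 0.07 ± 0.05 (adjusted p = 0.327). Its groups did not overlap, and none of its 6 probe sets passed. Plxna1, a receptor shared with class 3 and class 6 semaphorins, lay at -0.04 ± 0.05 (adjusted p = 0.721).

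**Figure D3:**
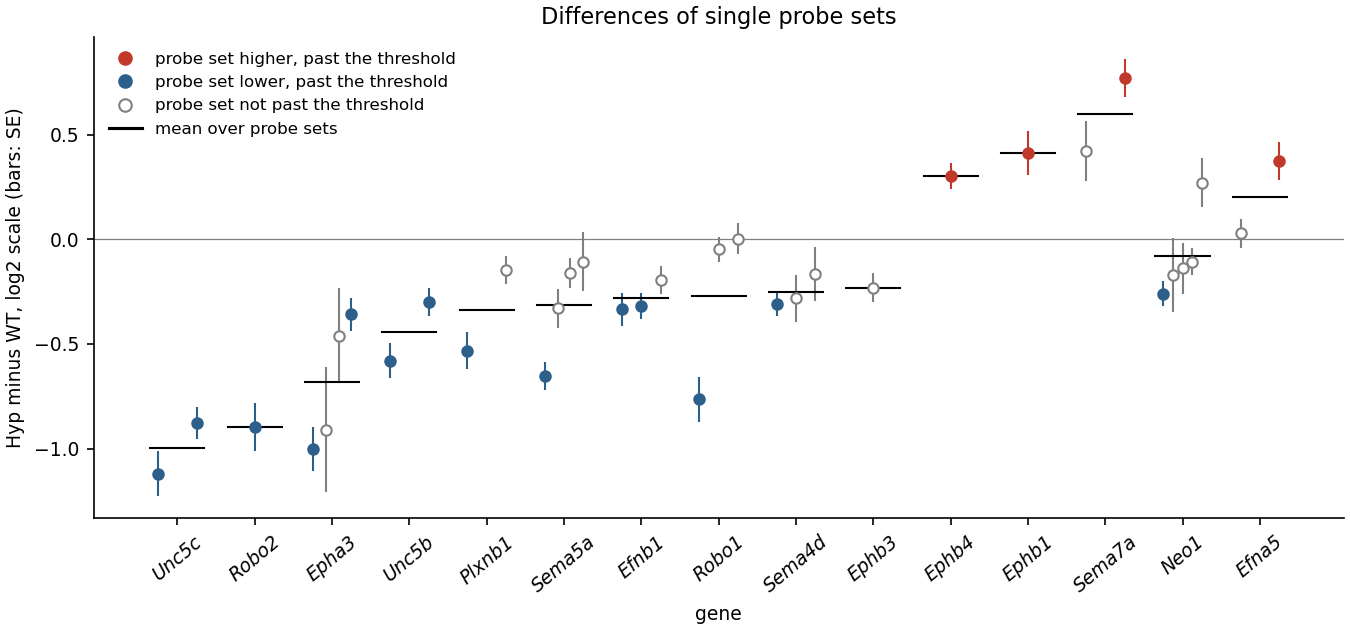
Difference between Hyp and WT (y axis, log2 scale, bars show the SE) at each probe set of the 13 genes that passed and of Neo1 and Efna5, with the gene mean as a black line. Probe sets of Unc5c and Unc5b all passed, while Robo1, Plxnb1 and Sema5a had 1 probe set past the threshold and others nearer 0.

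Across the 98 probe sets, 14 were lower and 4 higher past the threshold (limma over 45037 probe sets), or 18.4%, where 7.13% of all probe sets passed, 3.91% lower and 3.22% higher. Where a gene has several probe sets, the mean can understate the probe set that moved. The value moved by over 1.5 times with the probe set of the largest SD for Robo1 (-0.77), Sema5a (-0.65) and Plxnb1 (-0.53) among the genes that passed. That SD is taken over all 8 arrays and includes the difference between the groups, so the choice itself favours larger differences. Among the others it moved as far for several, such as Efna5 (0.37) and Sema6d (-0.46, adjusted p = 0.0658). Which transcripts the probe sets detect was not examined here.

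Ligands and receptors known to bind each other were set side by side in 15 textbook pairs, chosen after the values had been seen. In 7 pairs the receptor alone passed, in 2 the ligand alone, in 3 both and in 3 neither. Both fell for Sema4d and Plxnb1 and for Efnb1 and Ephb3, and Efnb1 fell while Ephb1 rose. Robo2 fell by 0.90 beside a difference of 0.20 for Slit2, and Unc5c fell by 0.999 beside 0.07 for Ntn1. Ephb4 rose by 0.30 beside 0.06 for Efnb2, whose probe sets differed in sign. Epha3 fell by 0.68 beside 0.20 for Efna5, and Sema7a rose by 0.60 beside 0.07 for Plxnc1. Whether a ligand and its receptor differ was not tested. Some genes stand in several pairs, so the pairs are not independent. Other combinations within the same families were left out, such as Robo2 with Slit3 (-0.22), Epha3 with Efna1 to Efna4 (all below 0) and Ntn1 with Unc5a. The counts, and the pairs with unlike signs, therefore depend on the choice of pairs.

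**Figure D4:**
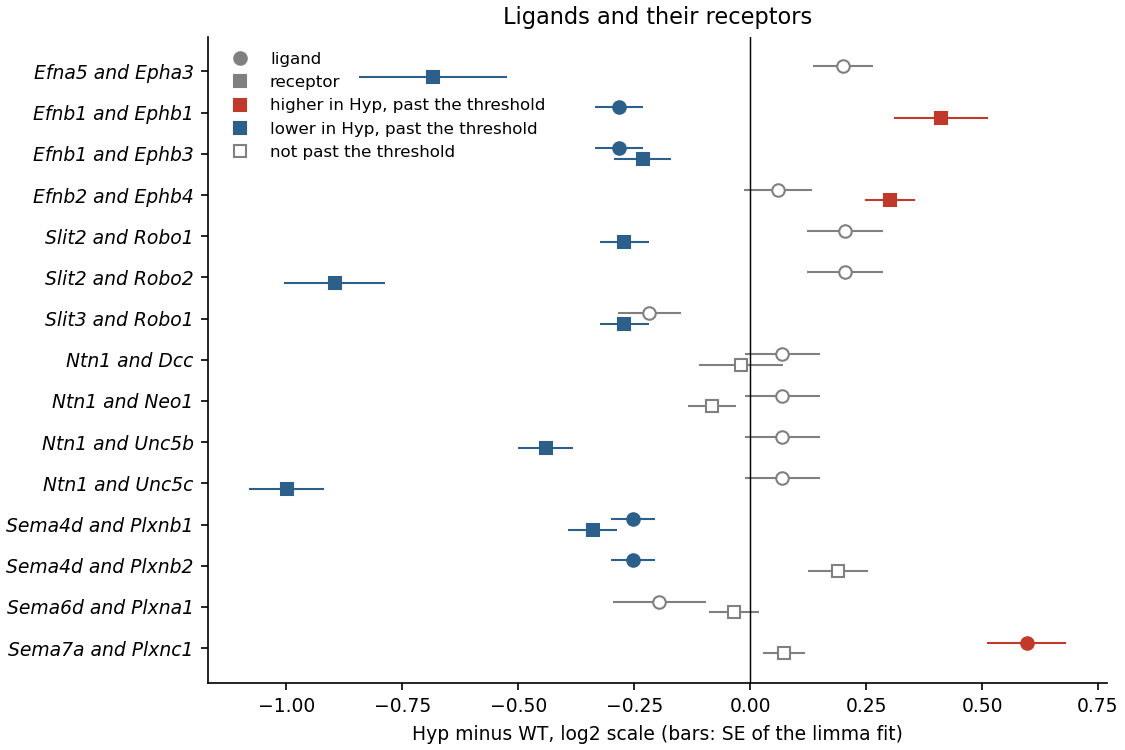
Difference between Hyp and WT (x axis, log2 scale, bars show the SE) of the ligand (circle) and the receptor (square) in 15 pairs (y axis). The pairs were chosen after the values had been seen, and filled symbols are past the threshold. In the pairs of Ntn1 with Unc5b and Unc5c and of Slit2 with Robo1 and Robo2 the filled receptor lies left of 0 and the open ligand right of it.

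Close relatives within a subclass were compared by the difference of their changes, over all 45 pairs within a subclass. With 4 arrays per group the smallest p of the two-sided exact permutation test is 0.0286, reached by 21 pairs, and none of the 45 passed after Benjamini-Hochberg adjustment (smallest 0.0612). Because of that floor, an adjusted p under 0.05 needed more than 21 pairs to reach it. The lack of a pass therefore says little about any single pair. Unc5c lay 0.56 ± 0.08 (SE) further down than Unc5b, and Unc5b 0.53 ± 0.06 further down than Unc5a. Robo2 lay 0.62 ± 0.15 below Robo1, and Ephb4 0.53 ± 0.05 above Ephb3. The gap between the Robo genes depends on the averaging of probe sets. The single Robo2 probe set fell by 0.90 ± 0.11, and 1 Robo1 probe set fell by 0.77 ± 0.11. The other Robo1 probe sets lay at 0.00 ± 0.07 and -0.05 ± 0.06. Plxnb2 lay 0.53 ± 0.05 above Plxnb1, Sema4a 0.49 ± 0.09 above Sema4d, Slit2 0.42 ± 0.10 above Slit3 and Efnb2 0.34 ± 0.09 above Efnb1. These 8 pairs are examples from the 21 with the smallest p (exact permutation p = 0.0286, adjusted 0.0612), and no rule was set for naming them. With 4 arrays per group, that p means only that the within-array difference did not overlap between the genotypes.

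Other genes of these pathways were taken from 5 lists, of which 87 of 88 genes were measured. Of the 87 genes 10 fell and 7 rose, or 19.5%, where 12.9% of all genes passed, and the median difference was 0.01. For the 3 larger lists the share was 21.7% for Eph and ephrin effectors, 15.8% for the netrin, RGM and FLRT list and 21.9% for the semaphorin and plexin list. With few genes per list these shares were not tested against that of all genes. Among 23 effectors of Eph and ephrin signalling 4 fell and 1 rose. Chn1 (alpha-chimaerin, a Rac GTPase-activating protein of EphA signalling) fell by 0.73 ± 0.08 (SE; limma adjusted p = 0.000184) and Ngef (ephexin, a RhoA exchange factor bound by EphA receptors) by 0.90 ± 0.11 (adjusted p = 0.000398). Vav2, an exchange factor, and Grb14, an adaptor, fell by 0.27 ± 0.06 and 0.28 ± 0.06. Named after its values were seen, Sdcbp (syntenin), a PDZ protein that binds B ephrins, rose by 0.20 ± 0.05. The 3 remaining Eph genes (Epha6, Epha8 and Epha10) did not pass. In the Slit and Robo list of 10, Gpc1, a heparan sulfate proteoglycan that binds Slits, fell by 0.39 ± 0.05 (adjusted p = 0.000394), Robo4 rose and the rest did not pass.

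Of 19 measured genes of the netrin, RGM and FLRT list 2 fell and 1 rose. Maged1, which binds Unc5 receptors, fell by 0.45 ± 0.04 (SE; limma adjusted p = 0.00012) and Flrt3, a membrane ligand of Unc5 receptors, by 0.26 ± 0.05. Dapk1, a kinase that acts with Unc5b, rose by 0.40 ± 0.08. Among 32 genes of the semaphorin and plexin list 4 rose and 3 fell. Farp2, an exchange factor downstream of plexin-A receptors, fell by 0.999 ± 0.08 (adjusted p = 4.89e-05), as far as Unc5c. It lay at -0.56, -0.43, -0.38 and -0.53 in Hyp and at 0.65, 0.37, 0.65 and 0.41 in WT, so its groups were well apart. The plexin genes Plxnd1 and Plxna2 rose by 0.45 ± 0.05 and 0.36 ± 0.06 and Mical3, a flavin monooxygenase of the MICAL family, fell by 0.58 ± 0.11.

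Marker lists of cell types in long bone were read on the same arrays, beside the 12.9% of all genes that passed. Of 7 measured osteoblast and osteocyte markers 4 fell and 1 rose, and the mean of the list ran from -0.24 to -0.04 in Hyp and from 0.08 to 0.22 in WT. Sp7, the osteoblast transcription factor, fell by 0.71 ± 0.08 (SE; limma adjusted p = 0.000199) and Ifitm5, an osteoblast membrane protein gene, by 1.22 ± 0.09, and Alpl and Col1a2 fell by 0.21 ± 0.05 and 0.47 ± 0.08. Col1a1 rose by 0.47 ± 0.12 (adjusted p = 0.0260), and Ibsp and Dmp1 lay at -0.17 ± 0.06 and 0.14 ± 0.07, so the list did not move one way. Of 8 monocyte and macrophage markers 7 rose (list mean 0.20 to 0.40 in Hyp, -0.43 to -0.30 in WT). All 8 endothelial and all 6 measured erythroid markers rose, and 5 of 8 pericyte and smooth muscle markers. Of 8 chondrocyte markers 5 rose, and the list means of the groups nearly touched (-0.03 to 0.43 in Hyp, -0.46 to -0.04 in WT). Of 8 osteoclast markers 1 fell (list mean -0.11 to -0.03 in Hyp, -0.02 to 0.10 in WT), and of 8 measured Schwann cell and nerve markers 1 fell, Pmp22. Both are 12.5%, near the share of all genes. Of 7 B lineage markers 2 fell. The 8 muscle markers did not pass, but all 8 differences lay below 0 (median -0.77). Their groups overlapped, and the list mean ran from -1.60 to 0.14 in Hyp and from -0.66 to 2.09 in WT. Since the values are centred, whether any defining marker is at background cannot be read, and the part of cell composition in the changes of the guidance genes was not tested. With the muscle list mean as a covariate, 3 guidance genes were higher and 9 lower, and the share of all genes in that fit is not given here.

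**Figure D5:**
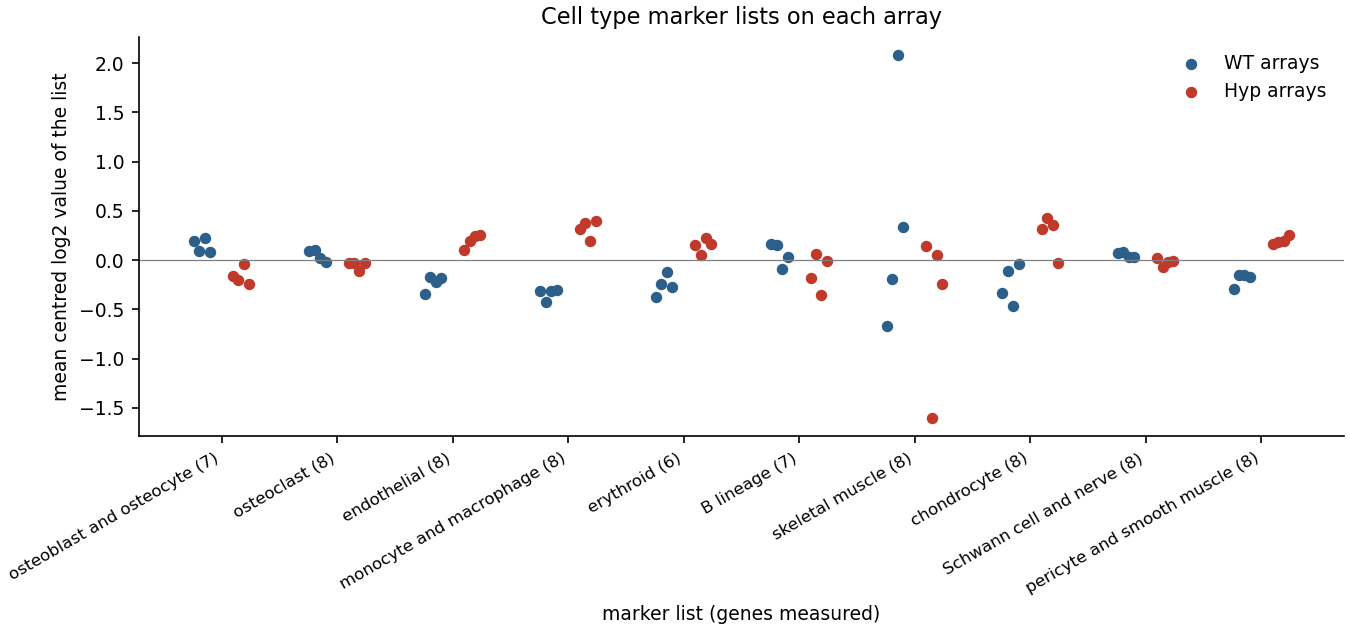
Mean centred log2 value (y axis) of each cell type marker list (x axis, genes measured in brackets) on the WT and Hyp arrays (points). Endothelial, macrophage, erythroid, pericyte and, narrowly, chondrocyte lists lie higher on every Hyp array than on any WT array. The osteoblast list and, narrowly, the osteoclast and Schwann cell lists lie lower. WT replicate 3 stands at 2.09 in the muscle list.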

How the data were processed

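The 8 arrays measured total RNA labelled with biotin. Per the submitters' processing notes the authors used RMA; its version is not given in the sources used here. The deposited log2 values have a median of 0 at each probe set (within 5e-07), which the labels do not mention. Base 2 is assumed, as the widest probe set spanned 8.92 units and RMA gives log2 values. Levels and signal over background cannot be read, and for arrays their number limits the precision (median SE of a guidance gene 0.065).

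After 64 controls were removed from 45101 probe sets, 45037 entered the tests. The annotation of the platform gave 1 symbol for 34945, several for 932 and none here for 9160. Symbols were updated through a RefSeq table of GRCm38.p6 (34741 found). The probe sets of a gene were averaged, and 18193 genes were fitted in limma 3.58.1 (R 4.3.3; lmFit, eBayes, two-sided, no covariate), with Benjamini-Hochberg adjustment over all genes and a threshold of 0.05. Differences are Hyp minus WT. SE comes from the fit, except for differences between relatives, where it comes from the 4 and 4 arrays. The procedure was also run on simulated data, and the outcome is not given here. The simulated noise was independent between genes, so differences between arrays that many genes share were not covered.

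The guidance genes, pathway lists and markers were chosen with earlier results of these data known. Every guidance gene is accounted for. Values per array are given for those that passed and for others of interest. From each pathway list up to 4 genes with the smallest p among those past the threshold are named. Beside these, Sdcbp and Plxnb3 were named after their values were seen. The values of 1 pathway gene that fell, counted in its list, are not reported here.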

Additional observations from a re-analysis of the deposited data

Results flagged for a closer look

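Within each group of 4 arrays the guidance genes were searched for a single array far from the other 3, by Dixon's ratio of the gap to the range. Of 80 groups 5 stood out, where chance gives about 4. Hyp replicate 2 lay at 0.302 for Efna5 against 0.06 to 0.10 on the other Hyp arrays. The same array lay at 0.277 for Dcc against -0.13 to -0.07, and at 0.21 for Plxnb2 against 0.00 to 0.03. For Efnb2, Hyp replicate 3 lay at -0.154 against 0.05 to 0.09, and for Ntn1, Hyp replicate 1 lay at 0.177 against -0.01 to 0.01. None of these 5 genes passed the threshold, and none of the 13 genes that did had such an array.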

How the results depend on the processing

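The count of guidance genes that passed stayed between 9 and 17 over the 19 alternatives run, beside 13 reported. The share of all genes that passed also moved with the setting. These counts alone therefore do not tell a shift of the guidance genes from one of all genes. Without single arrays it ran from 11 to 14 for all 40 genes, from 4 to 5 for the ligands, from 7 to 10 for the receptors and from 16 to 20 for the pathway genes. The count of ligands rose from 4 to 7 with a threshold of 0.10 and to 7 with the replicate number as a block. That block gave 15 guidance genes, 8 receptors and 18 pathway genes. It lost Ephb3 (adjusted p = 0.0581) and added Efna5, Efnb3 and Slit3 (adjusted p = 0.0443, 0.0468 and 0.0366). The labels do not say that the numbers pair arrays. Deviations of same-numbered arrays correlated at 0.15, -0.04, 0.26 and 0.18, which is not above 0.1 for every pair, so the numbers were not taken as pairing the arrays, and 2 of the 4 Hyp arrays correlated best with their own number. Of the 13 genes 9 passed under every alternative that gave them a value, other thresholds aside. The others were Epha3, Sema4d, Ephb1 and Ephb3, and Ephb3 also missed the threshold with an SD filter (0.0528), the muscle covariate (0.0879) and the probe set of the largest SD (0.0689). One alternative left out probe sets ending in _a_at, _s_at or _x_at. The only probe set of Ephb4 ends in _a_at, so Ephb4 could not be measured under that alternative. Slit3 passed with quantile normalization (0.0400), and Sema4a and Plxnb2 with array weights (0.0387 and 0.0395). No guidance gene that passed changed sign under any alternative, and the cause of the changes was not tested. At a threshold of 0.01 Epha3, Ephb1, Ephb3 and Sema5a dropped out. The share of all genes that passed fell to 7.75% without WT replicate 1. The muscle covariate was chosen after seeing the data.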

Other observations

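A pair of Neo1 probe sets designed from the same source sequence lay on opposite sides of 0, at -0.26 ± 0.06 (SE; limma adjusted p = 0.0317) and 0.27 ± 0.12 (adjusted p = 0.211), both with suffixes that mark shared probes. The remaining 3 probe sets of Neo1 lay between -0.17 and -0.11.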
